A study of Mus musculus with 4 samples.

Results

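The genes described here are those of the proteasome and of the immunoproteasome, the protease complexes that degrade ubiquitin-tagged proteins. They were chosen by name alone, as the protein-coding genes of RefSeq on GRCm38.p6 (mm10) whose symbol begins with Psma, Psmb, Psmc, Psmd, Psme, Psmf or Psmg followed by a digit. On the 19 autosomes and the sex chromosomes the rule found 51 of 21887 protein-coding genes. It also takes in Psmc3ip and Psme3ip1, 2 genes that carry the prefix and whose products are not proteasome subunits. The 49 genes that remain without them include assembly chaperones, activators and an inhibitor as well as subunits. Occupancy by MED1, a component of the Mediator coactivator through which transcription factors act on the polymerase, was mapped by ChIP-seq in RAW 264.7, a transformed mouse line of monocyte and macrophage character. The 2 groups were untreated cells (2 libraries) and cells given lipopolysaccharide (LPS), a bacterial cell-wall component, for 2 h (2 libraries). The LPS dose is 10 ng/mL in the sample labels and 100 ng/mL in the treatment protocol. All 4 libraries came from this line alone, each from cells crosslinked with DSG and formaldehyde, and the labels do not say that the 2 libraries of a group are separate cultures.

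The data hold no measurement per library. A list of 53764 intervals was deposited for the series, with no height, significance or condition, and read depth is unknown. Untreated and stimulated cells could therefore not be compared, no spread between libraries can be given, and every value below is a position or a width in base pairs (bp) in that list. Intervals that abut one another were joined into 22570 regions. A region counts as lying at a gene end when any base of it falls within 1 kb of either end of the annotated gene. As a check of the cell type, marker genes were counted. A region at an end was found at 10 of 10 macrophage markers (Csf1r, Spi1, Itgam and others) and at 45.5% of all protein-coding genes. It was found at 2 of 19 markers of T cells, B cells, neurons and hepatocytes, namely 1 of T cells and 1 of B cells. A further T-cell symbol on the list was not matched to a gene.

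The proteasome is a barrel of stacked rings capped by a regulatory particle. Outer rings of alpha subunits gate the barrel, inner rings of beta subunits hold the proteolytic sites, an ATPase ring unfolds substrates, and non-ATPase subunits recognise and remove ubiquitin. In cells exposed to interferon or inflammatory signals, the catalytic beta subunits encoded by Psmb5, Psmb6 and Psmb7 are replaced by those of Psmb8, Psmb9 and Psmb10, which gives the immunoproteasome, and the activator PA28, encoded by Psme1 and Psme2, can take the place of the cap. The immunoproteasome is best known for making peptides that MHC class I molecules present. Constitutive proteasome genes are known to be induced together by the transcription factor NRF1, the product of Nfe2l1, through antioxidant-type elements.

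MED1 regions lay at nearly every proteasome gene. Of the 51 genes, 48 (94.1%, Wilson 95% interval 84.1 to 98.0%) had a region at an end, where 45.5% of all protein-coding genes did. Counted more narrowly, by the midpoint of a region lying in the 1 kb window, 44 genes (86.3%) qualified against a background of 36.8%. A region touched the gene body in 49 genes (96.1%), and in 50.6% of all genes. These shares describe the set and were not tested. More than 1 region at the ends was found at 3 of the 48 genes (6.25%, background 14.3%), namely Psmb3, Psmb6 and Psme2. The Wilson intervals treat genes as independent draws and cover counting error only.

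**Figure D1:**
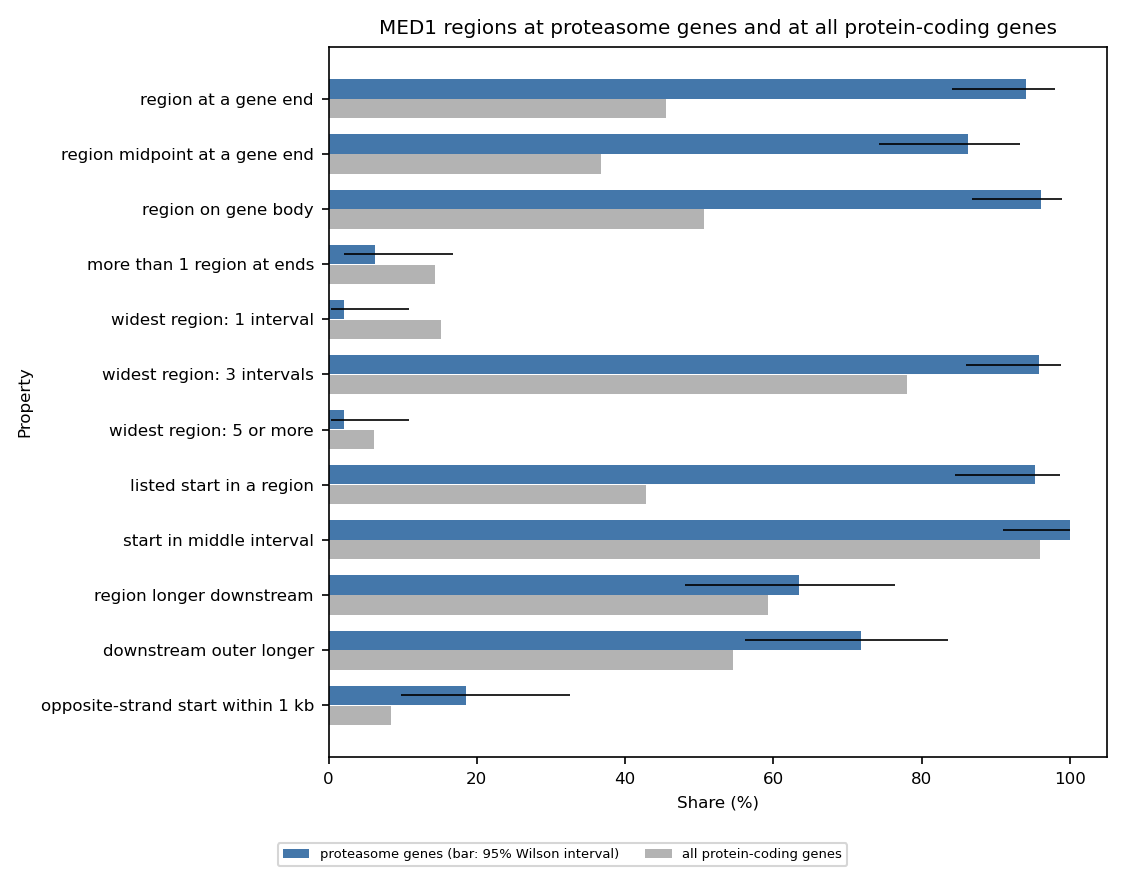
Share of proteasome genes (blue, with Wilson 95% intervals) and of all protein-coding genes (grey) with each property, in percent; each row has its own denominator, such as genes with a region at an end for the interval numbers. Regions at an end were found in 94.1% of proteasome genes and 45.5% of all genes, and regions of 1 interval in 2.08% and 15.2%.

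The regions were of ordinary width and of a uniform kind. Where a gene had several regions at its ends, the widest was taken. The median width was 2202 bp at proteasome genes (quartiles 1654 and 2895.5 bp, lowest 1055, highest 4944) and 2316 bp over the 9969 genes with a region at an end (quartiles 1616 and 3496 bp). The binomial 95% interval of the proteasome median, 1952 to 2635 bp, contains the median of all genes. Proteasome genes had 0 of 48 widest regions in the largest 5% of stitched clusters (677 of 13554 clusters made by linking regions at most 12.5 kb apart), where 10.8% of all genes with a region did. The nearest to that limit was the cluster at Psmb3, ranked 790th by covered length.

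Nearly all of these regions were built of 3 abutting intervals. The widest region had 3 intervals at 46 of 48 proteasome genes (95.8%, Wilson interval 86.0 to 98.8%), against 78.0% of all genes with a region at an end. It had a single interval at 1 gene (2.08%, background 15.2%), Psmd10, and 5 intervals at 1 gene, Psmb3 (2.08%, background for 5 or more 6.14%). What divides the intervals is not given in the sources used here. In 44 of the 46 regions of 3 intervals the middle one was the longest, as it was in 92.4% of the 13627 such regions in the list. The exceptions were Psma1, with intervals of 809, 715 and 671 bp, and Psmc4, with 66, 554 and 625 bp.

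Most annotated starts fell inside a region, which was not always the region counted at a gene end. The RefSeq promoter table lists a start, with its strand, for 43 of the 51 genes (47 starts). The genes Psma8, Psmb1, Psmb2, Psmb7, Psmc3, Psmd3, Psmd7 and Psmg2 have none in it. In 41 of the 43 genes (95.3%, Wilson interval 84.5 to 98.7%) a listed start fell inside a region, against 42.8% of the 17492 protein-coding genes in the table. Among these 41 genes, Psma6 and Psmf1 had no region at an end. At Psma3 and Psmb6 the start lay in a region other than the widest at an end. The start sat in the middle interval in all 39 genes whose start fell in a region of 3 intervals, where the background was 95.9%. It fell in an outer interval at none of them, against 1.64% (upstream) and 2.49% (downstream) of all such genes. From the start, the region reached a median of 933 bp upstream and 1372 bp downstream at the 41 proteasome genes, and 997 and 1165 bp over the 7485 genes with a start in a region. The downstream side was the longer at 26 of 41 proteasome genes (63.4%, background 59.3%).

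The outer intervals were uneven in the same direction. The upstream outer interval had a median of 97 bp and the downstream one 289 bp at the 39 proteasome genes, against 159 and 187 bp at the 6095 genes with a start in a region of 3 intervals. The downstream one was the longer at 28 of 39 (71.8%, Wilson interval 56.2 to 83.5%), and at 54.6% of all such genes. The middle intervals were alike, with medians of 1807 and 1763 bp.

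**Figure D2:**
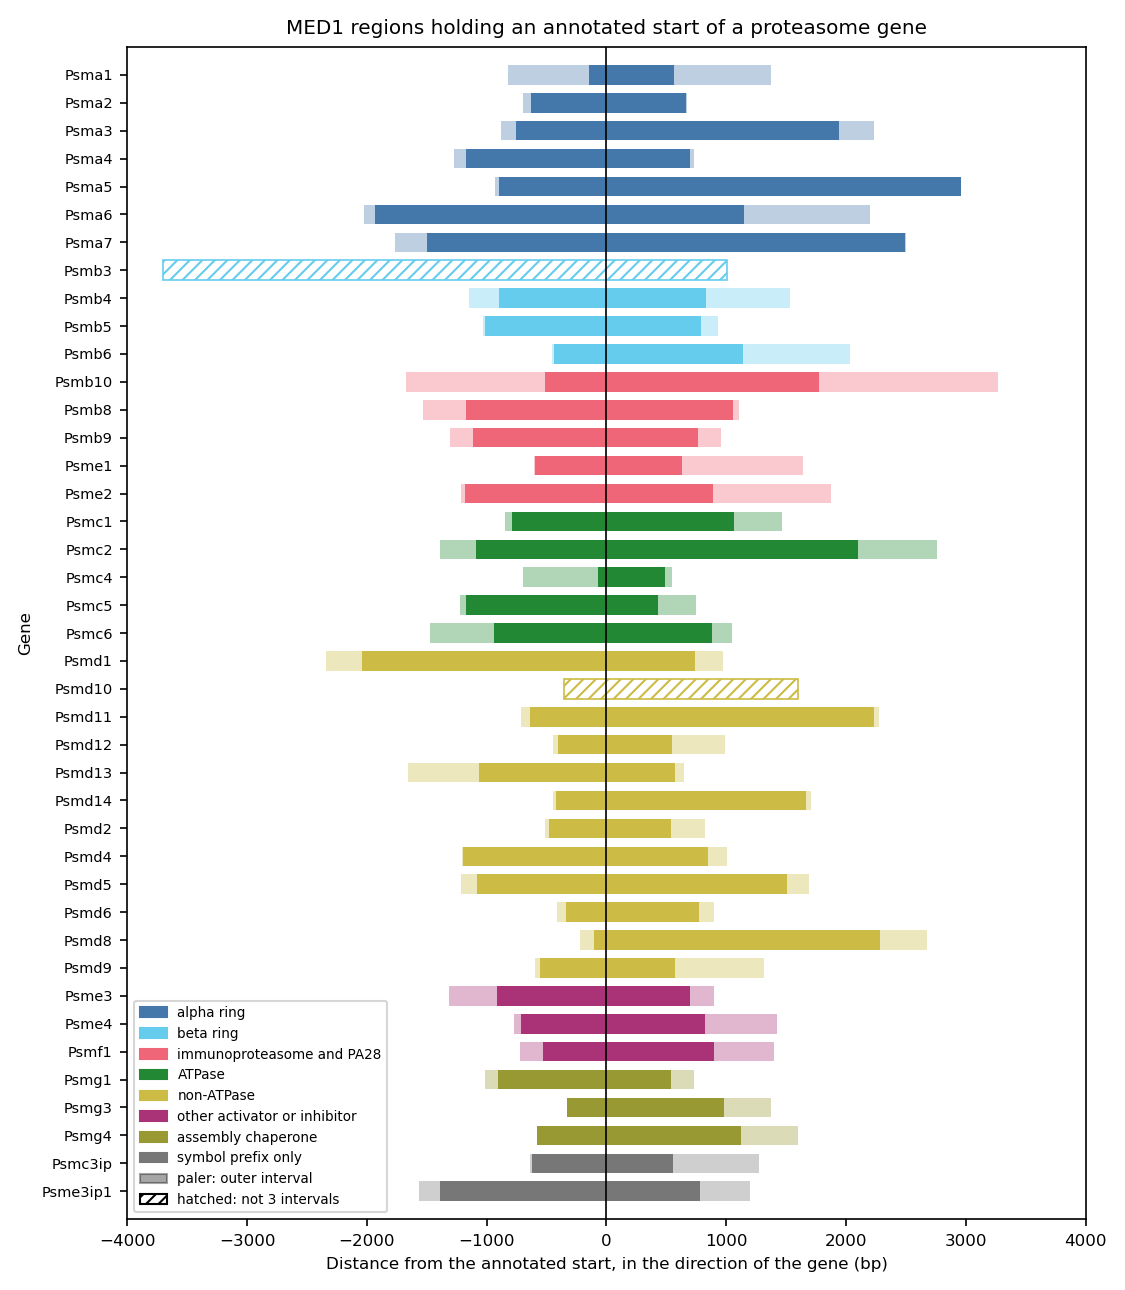
MED1 regions that hold a listed start of a proteasome gene, drawn from that start in the direction of the gene (bp); full colour marks the middle interval, paler colour the outer ones, and hatching a region that does not have 3 intervals (Psmb3 and Psmd10). The start lies in the middle interval at all 39 genes with 3 intervals.

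All 5 inducible genes, which encode the immunoproteasome subunits and PA28, had a region at an end, and each region had 3 intervals and held a listed start in its middle interval. Their widths ran from 2243 to 4944 bp with a median of 2635 bp. Psmb10, the counterpart of Psmb7, had the widest region at an end of any proteasome gene, 4944 bp, which covered the whole gene and stood at percentile 85.4 of widths over all genes with a region. Psme2 followed with 3087 bp (percentile 68.8) and Psmb8, the counterpart of Psmb5, with 2635 bp (percentile 59.2). Psmb9, the counterpart of Psmb6, had 2255 bp and Psme1 had 2243 bp, close to the middle of all genes at percentiles 48.3 and 48.0. The constitutive counterparts Psmb5, Psmb6 and Psmb7 had 1954, 2768 and 1476 bp. The inducible gene was the wider at Psmb8 and Psmb10 and the narrower at Psmb9, with the largest gap between Psmb10 and Psmb7. For Psmb6 the region counted spanned its far end, and the region holding its start measured 2487 bp.

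Psmb9 and Psmb8 lie in the MHC on chromosome 17, interleaved with Tap1 and Tap2, which encode the transporter that carries peptides into the endoplasmic reticulum. Psmb9 (34182030 to 34187330, minus strand) and Tap1 start 226 bp apart on opposite strands, and a single region (34186379 to 34188633) held both starts. Its intervals measured 189, 1881 and 185 bp, nearly symmetric about the pair. The Psmb8 region (34196663 to 34199297; 357, 2227 and 51 bp) also overlapped the far end of Tap1. Tap2 had a region of 3013 bp in 5 intervals at its own end.

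Psme1 and Psme2 lie on chromosome 14 with Emc9 between them. The Psme1 region (55577892 to 55580134) also reached the 1 kb window of Fitm1. It began with an outer interval of only 6 bp, followed by a middle interval of 1229 bp and a downstream one of 1008 bp. At Psme2, on the minus strand, the region (55589226 to 55592312) had the same build in the direction of the gene, with 30 bp upstream, 2069 bp in the middle and 988 bp downstream. It also held the start of Rnf31, a subunit of the linear ubiquitin ligase, which is listed 641 bp upstream on the opposite strand. A further region of a single interval (2146 bp) lay 669 bp from the other end of Psme2, where Emc9 starts. Psmb10, on chromosome 8 (105935728 to 105938392, minus strand), had outer intervals of 1163 bp upstream and 1492 bp downstream around a middle of 2289 bp, and its region also reached the 1 kb window of Lcat, a plasma cholesterol-esterifying enzyme.

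The stretches of 250 bases before the start are shown for the 5 inducible genes, since the middle interval covered the start at each. They are from RefSeq (GRCm38.p6), written 5′ to 3′ in the direction of the gene, with capitals for any match to the 9 short motifs described further on. Positions count back from the start to the first base of the match.
Psmb9, chr17:34187331-34187580, minus strand: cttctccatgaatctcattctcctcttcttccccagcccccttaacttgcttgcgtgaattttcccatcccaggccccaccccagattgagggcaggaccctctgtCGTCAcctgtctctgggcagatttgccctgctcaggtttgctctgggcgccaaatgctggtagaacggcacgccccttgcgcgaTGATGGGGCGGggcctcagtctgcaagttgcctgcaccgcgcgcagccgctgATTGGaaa
Psmb8, chr17:34197945-34198194, plus strand: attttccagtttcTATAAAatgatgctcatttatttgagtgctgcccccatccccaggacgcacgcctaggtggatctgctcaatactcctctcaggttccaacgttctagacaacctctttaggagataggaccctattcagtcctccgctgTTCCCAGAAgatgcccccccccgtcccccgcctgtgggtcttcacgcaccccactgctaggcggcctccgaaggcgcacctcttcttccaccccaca
Psmb10, chr8:105938393-105938642, minus strand: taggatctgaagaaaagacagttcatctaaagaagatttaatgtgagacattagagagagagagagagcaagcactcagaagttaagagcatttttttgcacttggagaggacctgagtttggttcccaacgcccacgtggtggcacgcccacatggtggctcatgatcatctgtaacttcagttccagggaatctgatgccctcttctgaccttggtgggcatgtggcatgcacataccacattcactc
Psme1, chr14:55578244-55578493, plus strand: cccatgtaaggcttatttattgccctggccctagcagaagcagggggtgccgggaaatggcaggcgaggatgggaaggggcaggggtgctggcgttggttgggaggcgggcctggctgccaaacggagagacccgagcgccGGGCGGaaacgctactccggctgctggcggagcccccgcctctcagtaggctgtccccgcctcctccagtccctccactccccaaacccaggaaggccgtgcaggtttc
Psme2, chr14:55591102-55591351, minus strand: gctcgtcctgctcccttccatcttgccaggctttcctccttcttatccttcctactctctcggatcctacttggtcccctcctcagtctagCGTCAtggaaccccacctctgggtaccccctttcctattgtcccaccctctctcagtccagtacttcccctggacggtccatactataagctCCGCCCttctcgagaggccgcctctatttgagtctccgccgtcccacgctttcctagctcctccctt

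The stretches differed in motif content. The Psmb9 stretch, which runs into Tap1 at its far end, held a CRE core at 144 bases, an antioxidant-type element at 60, an Sp box at 55 and an NF-Y box at 8. The antioxidant-type element and the Sp box there shared bases. The Psmb8 stretch held a TATA box at 237 bases and a GAS-type element at 97. Psme1 had an Sp box at 109 and Psme2 a CRE core at 159 and an Sp box at 67. The Psme2 stretch shown belongs to its listed start at 55591101. Its other listed start, at 55591021, also lay in the region, and the stretch before it is not shown. That stretch held Sp boxes at 147 and 53, a CRE core at 239 and an antioxidant-type element at 67. None of the 9 motifs was found in the Psmb10 stretch, which says only that these letters are not in that window. Matches in the 50 bases after a start are counted further on and not shown here.

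Of the 8 alpha-ring genes, 7 had a region at an end, with widths from 1115 to 4261 bp (median 2195 bp). Psma7, Psma5 and Psma3 had the widest (4261, 3890 and 2975 bp). The Psma5 region consisted almost wholly of its middle interval (32, 3857 and 1 bp). Psma3, whose product helps close the gate of the barrel, had its listed start inside the annotated gene, in a further region of 3113 bp. Psma8, the testis-specific relative of Psma7, had a region of 1115 bp, the narrowest of the ring.

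Psma6 was the alpha-ring gene with no region at an end, and its 2 listed starts separated. The start at the gene's outer end (chromosome 12, 55384222) lay 3150 bp outside the nearest region. The inner start (55398825) lay in a region of 4227 bp (97, 3079 and 1051 bp in the direction of the gene). Between them lay another region of 7317 bp, wider than any at the end of a proteasome gene. The stretches before both starts are shown because only the inner one carried a region.
Psma6, outer start, chr12:55383972-55384221, plus strand: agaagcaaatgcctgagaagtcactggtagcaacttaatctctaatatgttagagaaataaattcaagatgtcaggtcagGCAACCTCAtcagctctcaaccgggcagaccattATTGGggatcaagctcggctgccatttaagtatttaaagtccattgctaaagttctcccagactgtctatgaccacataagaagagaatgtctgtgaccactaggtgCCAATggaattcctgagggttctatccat
Psma6, inner start, chr12:55398575-55398824, plus strand: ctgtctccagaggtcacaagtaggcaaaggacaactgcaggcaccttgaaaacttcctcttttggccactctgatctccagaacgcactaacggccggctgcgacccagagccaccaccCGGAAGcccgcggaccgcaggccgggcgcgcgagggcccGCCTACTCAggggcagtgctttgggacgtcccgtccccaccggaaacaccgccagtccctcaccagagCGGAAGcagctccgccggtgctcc

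The 2 stretches differed in motifs and composition. The outer one held NF-Y boxes at 136 and 29 bases and an antioxidant-type element at 170. The inner one held ETS cores at 131 and 24 and an antioxidant-type element at 92. Over the whole window of 300 bases around each start, the outer one had 46.7% G and C with 3 CpG dinucleotides and the inner one 65.0% with 22.

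All 8 beta-ring genes outside the inducible set had a region at an end, from 1055 to 4712 bp (median 2316 bp). Psmb3, a structural subunit, had the widest (4712 bp), in 5 intervals of 58, 1855, 355, 2124 and 320 bp, and it extended 3704 bp upstream of the Psmb3 start into the end window of Pcgf2, a Polycomb gene. Psmb1 followed with 3174 bp, in a region shared with the end window of Tbp, which encodes the TATA-binding protein. Psmb6, the subunit with caspase-like activity, had 2 regions, at its start (2487 bp) and across its far end (2768 bp). Psmb5, which carries the chymotrypsin-like site, had a region of 1954 bp with intervals of 12, 1807 and 135 bp in the direction of the gene.

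Psmb11 was counted only through a neighbour. Its product is the beta subunit of cortical thymic epithelial cells. The region that qualified (1055 bp, 54630294 to 54631348 on chromosome 14) began 738 bp past the far end of the gene and also lay at the end of Cdh24. The Psmb11 start lay 4984 bp from the nearest region. The 3 stretches show the starts of Psmb5 and Psmb6, which lay in regions, and that of Psmb11, which did not.
Psmb5, chr14:54617996-54618245, minus strand: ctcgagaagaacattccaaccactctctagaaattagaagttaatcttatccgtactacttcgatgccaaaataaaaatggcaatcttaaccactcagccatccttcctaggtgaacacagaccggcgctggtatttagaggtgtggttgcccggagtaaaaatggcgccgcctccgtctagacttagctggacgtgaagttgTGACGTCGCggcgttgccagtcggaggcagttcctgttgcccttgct
Psmb6, chr11:70525107-70525356, plus strand: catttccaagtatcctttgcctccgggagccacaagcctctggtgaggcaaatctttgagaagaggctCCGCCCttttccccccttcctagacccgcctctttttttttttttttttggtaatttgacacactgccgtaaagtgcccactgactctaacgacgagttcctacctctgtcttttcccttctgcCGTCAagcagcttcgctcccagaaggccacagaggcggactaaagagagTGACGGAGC
Psmb11, chr14:54625060-54625309, plus strand: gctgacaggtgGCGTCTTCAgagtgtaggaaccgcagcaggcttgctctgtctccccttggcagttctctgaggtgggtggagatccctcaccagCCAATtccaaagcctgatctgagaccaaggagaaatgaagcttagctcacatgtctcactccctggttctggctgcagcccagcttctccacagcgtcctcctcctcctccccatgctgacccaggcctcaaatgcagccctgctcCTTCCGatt

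Psmb5 and Psmb6 each held a CRE core that shared bases with an antioxidant-type element, at 47 bases before the Psmb5 start and at 9 before that of Psmb6. Psmb6 held a further CRE core at 58 and an Sp box at 182. The Psmb11 stretch held an antioxidant-type element at 239, an NF-Y box at 155 and an ETS core at 9. Its window of 300 bases contained 4 CpG dinucleotides, those of Psmb5 and Psmb6 contained 20 and 15.

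The 6 ATPase genes all had a region at an end, from 1163 to 4151 bp (median 2139.5 bp), and all 6 regions had 3 intervals. Psmc2, Psmc6 and Psmc1 had the widest (4151, 2521 and 2315 bp). The 2 listed starts of Psmc2 both lay in its region, which also reached the end window of Dnajc2. At Psmc5 the region (1964 bp) held the start of Ftsj3, 101 bp upstream on the opposite strand. Psmc3 had the narrowest, 1163 bp, at percentile 9.73 of all genes with a region.

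The non-ATPase genes, 14 in number, all had a region at an end, from 1312 to 3307 bp (median 2054 bp). The widest were at Psmd1, a scaffold of the base (3307 bp), Psmd11 (2990 bp) and Psmd5, an assembly chaperone of the base (2900 bp). At Psmd14, which encodes the deubiquitinase of the lid, the region was 2156 bp with intervals of 24, 2090 and 42 bp. At Psmd4, a ubiquitin receptor, it was 2215 bp (12, 2040 and 163 bp in the direction of the gene). Psmd6, Psmd7 and Psmd2 had the narrowest (1312, 1331 and 1332 bp). Psmd10, an assembly chaperone also known as gankyrin and the member on the X chromosome, had the single-interval region (1952 bp).

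The remaining activators and the inhibitor were mixed, with a region at an end in 2 of 4. Psme3, encoding the nuclear activator PA28 gamma, had 2209 bp and Psme4, encoding the activator PA200, had 2192 bp, with a further single-interval region of 2380 bp in the body of Psme4. Psmf1, the inhibitor PI31, had none at an end because its annotated end lay 2164 bp beyond the region, while its listed start (chromosome 2, 151741310) lay inside a region of 2122 bp (194, 1429 and 499 bp). Psme2b, a relative of Psme2 on chromosome 11 (48945345 to 48946410), had no region within 42215 bp of an end. Psme2b is a copy of Psme2, and how the placement of reads bears on it was not tested. Psmb11 at 738 bp was thus the gene closest inside the 1 kb limit, and Psmf1 at 2164 bp and Psma6 at 3150 bp the closest outside it.

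The 4 assembly chaperone genes of the core barrel, Psmg1 to Psmg4, all had a region of 3 intervals, of 1746, 2903, 1705 and 2184 bp in that order. The Psmg2 region also reached the end window of Cep76, and that of Psmg1 the end window of Brwd1. The 2 genes with the prefix only were like the rest, with 1912 bp at Psmc3ip, a partner in meiotic recombination, and 2760 bp at Psme3ip1, named for its interaction with PA28 gamma. Of the 2 listed Psme3ip1 starts 1 lay in the region and the other 9165 bp from any.

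Some regions were shared with a neighbouring gene, and none by 2 proteasome genes. The 48 genes had 51 distinct regions at their ends, of which 21 (41.2%, Wilson interval 28.8 to 54.8%) also touched the 1 kb window of another protein-coding gene. Over all 11465 pairs of a gene and a region at its end the share was 37.0%. A start of another protein-coding gene lay on the opposite strand within 1 kb upstream at 8 of 43 genes (18.6%, Wilson interval 9.74 to 32.6%, background 8.48%). Among genes with a start in a region the shares were closer, 8 of 41 (19.5%) against 17.6%. The closest was Psma7, 19 bp from the start of Ss18l1, followed by Psmd13 with Sirt3, a mitochondrial deacetylase gene (85 bp), Psmc5 with Ftsj3 (101 bp), Psmd10 with the autophagy gene Atg4a (196 bp) and Psma2 with Mrpl32, a mitochondrial ribosomal protein gene (205 bp). Psme3ip1 with Rspry1 (215 bp), Psmb9 with Tap1 (226 bp) and Psme2 with Rnf31 (641 bp) completed the 8. At such pairs a region cannot be assigned to one of the genes. More widely, a median of 3 region midpoints lay within 50 kb of the ends of a proteasome gene (lowest 1, highest 9, at Psmb3), against 2 over all genes.

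Promoter sequence was examined with 9 short motifs, read on both strands in windows from 250 bases before to 50 after the start (47 proteasome windows, 21263 of all protein-coding genes). The motifs were the NF-Y box CCAAT, the Sp box GGGCGG, the ETS core CGGAAG, the CRE core TGACG, the antioxidant-type element TGANNNNGC, the interferon-type element GAAANNGAA, the GAS-type element TTCNNNGAA, the kappaB-type element GGANNTTCC and the TATA box TATAAA. A match is a description of the letters and not a site of binding. The antioxidant-type pattern is loose and was in 41.7% of all windows, so a match does not show an element through which NRF1 acts. The CRE core and the antioxidant-type element can share bases, as they did in 3 proteasome windows (Psmb5, Psmb6 and Psme4), and so can the ETS core and the kappaB-type element (Psmc3ip and Psme3). Other pairs can too. The antioxidant-type element and the Sp box shared bases at, for example, Psmb9, Psmd9, Psmg4, Psma4 and Psmd5. The counts of the motifs are therefore not independent of one another.

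The ETS core had the largest difference from all windows in percentage points. It was in 25 of 47 proteasome windows (53.2%, Wilson interval 39.2 to 66.7%), in 21.1% of all windows and in 37.5% of the 8835 windows whose start lay in a region. Genes with it included Psmc1, Psmc4, Psmd12 and Psmg1, and none of the 5 inducible genes. The antioxidant-type element was in 27 windows (57.4%, background 41.7%, or 43.4% with the start in a region), among them Psma5, Psma7, Psmb5, Psmb6 and Psmd12. The CRE core was in 20 (42.6%, background 23.6% and 35.1%). The Sp box was in 25 (53.2%), between the 46.2% of all windows and the 64.9% of those with the start in a region. In the 43 proteasome windows with the start in a region, the ETS core was in 55.8% and the antioxidant-type element in 58.1%. The CRE core was in 46.5% of these 43 and the Sp box in 58.1%.

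Elements named for inflammatory factors were in fewer windows. The kappaB-type element was in 6 (12.8%, background 4.36% and 4.97%), those of Psma1, Psmc2, Psmc3ip, Psmd8, Psme3 and Psme4, and in none of the inducible genes. The interferon-type element was in 7 (14.9%, background 8.15% and 7.62%), with Psme1 the only inducible gene among them. The GAS-type element was in 3 (6.38%, background 7.69% and 7.1%), Psmb8, Psmd2 and Psmg1. The NF-Y box was in 16 windows (34.0%, background 38.2% and 39.5%). The TATA box was in 4 (8.51%), below the 12.6% of all windows and above the 6.4% of those with the start in a region. The windows of proteasome genes had a median of 57.3% G and C and 19 CpG dinucleotides, against 56.3% and 13 over all windows, and 60.7% and 21 over those with the start in a region.

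The other genes of the pathway were taken from a list of 36 symbols, which matched 34 genes. Of these, 33 (97.1%, Wilson interval 85.1 to 99.5%, background 45.5%) had a region at an end. The median width was 2656 bp, against 2316 bp over all genes with a region at an end. The region counted for Tap1 (2635 bp) is the same one that was counted for Psmb8. Of the 33 regions, 26 had 3 intervals, as did 78.0% over all genes with a region at an end. Among the widest were Irf1, an interferon-responsive activator of immunoproteasome genes (16149 bp), B2m, the light chain of MHC class I (13212 bp), and Nfe2l2, which encodes the oxidative stress factor NRF2 (11793 bp). Tapbp, encoding the peptide-loading protein tapasin, had 10141 bp. Each of these exceeded the 4944 bp of Psmb10.

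Partners of the proteasome itself varied in width. Pomp, the maturation factor of the core, had 2135 bp, the ubiquitin receptor Adrm1 had 1337 bp, Sem1 had 2323 bp, and Usp14, a deubiquitinase of the cap, had 2155 bp. Uchl5, the other such deubiquitinase, had 7459 bp, more than at any proteasome gene end. Of this width, 5919 bp lay upstream of its start, and Ro60 starts 227 bp upstream on the opposite strand. The region can therefore not be assigned to Uchl5 alone. Nfe2l1, the source of NRF1, had 3643 bp, and all 5 of its listed starts lay in regions. Ubb, a polyubiquitin gene, had 3531 bp and Rps27a, a fusion of ubiquitin with a ribosomal protein, had 7839 bp. Ecpas, encoding a proteasome adaptor, had no region at an end, although 1 of its 2 listed starts lay in a region. Single-interval regions were found at Ubqln2 (702 bp), Ddi2 (1916 bp), the protease that activates NRF1, and Nsfl1c (483 bp).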

How the data were processed

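MED1 ChIP-seq libraries from RAW 264.7 cells (2 untreated, 2 with LPS for 2 h) were made from chromatin fixed with DSG and formaldehyde, per the labels' protocols. The submitters' processing notes name Bowtie, SAMtools, MACS2 2.2.6 and the mm10 build, and the sources used here give no settings, control or pooling. The authors deposited interval positions, whose score is 0 in every line, with 0 columns of other samples. Abutting intervals were joined, 4 mitochondrial ones left out, and the regions set against RefSeq gene ends and listed starts (1-based). The members and lists were chosen with earlier results of these data known. Named genes were the 5 inducible ones, in each role the 3 with the widest region and those without one, and the 5 widest of the pathway list and those without one; other genes were named after their values were seen, and some pathway genes are not reported here. No p-value was computed. Joining, overlap and motif search were tested on simulated data. The percent of genes or promoters over all features is printed as the background, with Wilson intervals for members. Alternatives were other windows, overlap criteria, region sets and promoter backgrounds. Software versions were scipy 1.17.1, pandas 2.3.3, matplotlib 3.10.9 and numpy 2.4.6, under Python 3.11.15.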

Additional observations from a re-analysis of the deposited data

How the results depend on the processing

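The number of proteasome genes with a region at an end (48) ranged from 32, with regions narrower than the median left out, to 49 with a window of 2.5 kb. All 5 inducible genes kept a region in each of the 8 alternatives. The pathway list (33 of 34) ranged from 25, again without the narrower regions, to 33. Counted within 1 kb of a listed start, it was 24 of the 24 genes that have one. A listed start lay inside a region at 21 of these 24. The share of all genes, 45.5%, was 44.1% with a window of 500 bp, 48.4% with 2.5 kb and 36.8% by midpoint. It was 43.8% with at least 500 bp covered, 28.3% with regions narrower than the median left out and 39.2% without single-interval regions. Among genes with a listed start, 46.3% had a region within 1 kb of it and 42.8% had a start inside a region. The median width at proteasome genes was 1768 bp for unjoined intervals, against 2202 bp, since an interval is part of a region. Restricting the promoter background to starts in a region, an alternative chosen after the data were seen, changed the shares to 39.5% (NF-Y box), 64.9% (Sp box), 37.5% (ETS core), 35.1% (CRE core), 43.4% (antioxidant-type), 7.62% (interferon-type), 7.1% (GAS-type), 4.97% (kappaB-type) and 6.4% (TATA box). No paired analysis was possible because the list holds no value per library, and for the same reason no library could be left out. Depth is unknown, so a missing region does not show that MED1 was absent.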

Other observations

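The 6 annotated pseudogenes of the family (Psma5-ps, Psmb5-ps, Psmb6-ps, Psmb6-ps2, Psmb7-ps1 and Psmb7-ps2) had a region at an end in 0 cases. The share over all pseudogenes was not computed, so this count has no background. How the placement of reads bears on such copies was not tested. Several proteasome genes lay in the same stitched cluster of regions. Psme1 and Psme2 shared a cluster of 4 regions covering 10964 bp (chromosome 14, 55577892 to 55606122), Psmb9 and Psmb8 a cluster of 3 regions covering 7903 bp (chromosome 17, 34186379 to 34206594), and Psmb5 and Psmb11 a cluster of 6 regions covering 8902 bp (chromosome 14, 54602216 to 54654140). The Psmb3 cluster had 5 regions covering 13145 bp.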
